A study of Homo sapiens with 10 samples.

Results

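Binding of the coactivator MAML3 and of RARα, a receptor for retinoic acid, was examined at 3 teneurin genes, TENM4, TENM2 and TENM3 (older symbols ODZ4, ODZ2 and ODZ3), in SK-N-SH cells. The members are all deposited peaks that touch the hg19 windows 11:78.36 to 79.20 Mb for TENM4, 5:166.66 to 167.74 Mb for TENM2 and 4:183.02 to 183.78 Mb for TENM3. They number 82 of the 26482 peaks in the 8 lists, with 59 at TENM4, 10 at TENM2 and 13 at TENM3. SK-N-SH is an established human neuroblastoma line, and the samples are labelled as its control cells. All cells were kept in charcoal-stripped serum for 24 hours and then given either the vehicle alone (UT) or retinoic acid at 1 µM (RA). Chromatin immunoprecipitation and sequencing (ChIP-seq) gave 2 lists for each antibody and treatment. The genes were chosen by the presence and rank of their peaks in these lists, so both are given as a description and were not tested.

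Teneurins are large transmembrane proteins of the nervous system. Their extracellular parts bind each other and the latrophilins, adhesion receptors on the opposite cell, and so help axons find partners and form synapses. TENM4 is also needed for the maturation of oligodendrocytes, TENM3 for the wiring of the visual pathway, and TENM2 is a ligand of latrophilin at synapses. RARα binds DNA and responds to RA, and MAML3 is a mastermind-like coactivator, a family best known for binding the Notch complex on the DNA protein RBPJ. RA drives neuroblastoma cells towards a neuronal form. TENM1 and the latrophilin and FLRT partners of teneurins were not analysed here, because no gene annotation on hg19 was used. For the same reason exons, introns and gene starts were not placed among the peaks, and the bases under the peaks are not shown.

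The lists differ in length, which bears on every count below. The MAML3 lists held 2222 and 6759 peaks in UT cells and 7532 and 6230 after RA. The RARα lists held 1321 and 251 in UT cells and 1103 and 1064 after RA. The index tag in the list names is the same for both UT MAML3 lists, so they may be 1 library sequenced on 2 lanes, and the list of 251 peaks is tagged as merged, with no label that explains either. The labels do not say that replicates came from separate cultures. The depth of reading is unknown here, so the absence of a peak does not show that a place was unbound.

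The promoter that RefSeq lists for TENM4, the gene with most of the peaks, and the only 1 of the 5 listed teneurin promoters with a motif match are shown for their sequence. They run 5′ to 3′ from 250 bases before to 50 bases after the start on GRCh38.p14, a build other than that of the peaks, so no peak is placed on them. Capitals mark matches, on either strand, to AGGTCA (the core motif of retinoic acid receptors) or TGGGAA (the RBPJ core).
TENM4 promoter, chr11:79440981-79441280, minus strand: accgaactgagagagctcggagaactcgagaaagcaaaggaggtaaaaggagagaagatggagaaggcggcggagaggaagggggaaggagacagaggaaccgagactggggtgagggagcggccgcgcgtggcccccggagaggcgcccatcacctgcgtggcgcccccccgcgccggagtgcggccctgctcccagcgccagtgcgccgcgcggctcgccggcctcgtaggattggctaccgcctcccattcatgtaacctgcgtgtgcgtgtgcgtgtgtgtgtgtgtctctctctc
TENM2 promoter 2, chr5:167754679-167754978, plus strand: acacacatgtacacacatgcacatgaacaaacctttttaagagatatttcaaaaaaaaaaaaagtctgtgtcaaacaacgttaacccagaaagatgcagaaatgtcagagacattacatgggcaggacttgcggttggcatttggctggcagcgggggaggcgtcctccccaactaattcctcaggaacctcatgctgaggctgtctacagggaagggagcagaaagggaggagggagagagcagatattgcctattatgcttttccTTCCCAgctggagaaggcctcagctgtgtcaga
TENM4 held neither motif in this promoter, and TENM2 held 1 match to TGGGAA, on the reverse strand. None of the 5 promoters (1 of TENM4, 2 each of TENM2 and TENM3) held AGGTCA or its direct repeats spaced by 1, 2 or 5 bases (AGGTCANAGGTCA, AGGTCANNAGGTCA and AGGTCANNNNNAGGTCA). Of the 35116 promoters in the RefSeq table, 13.8% held AGGTCA, 24.0% held TGGGAA, and the repeats were in 8, 1 and 2 of them.

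TENM4 carried more MAML3 peaks than either of the other windows in every list. MAML3 peaks numbered 8 and 13 there in UT cells and 10 and 12 after RA, as the plot of peaks per list shows. At TENM2 there were 0 and 2 peaks in UT cells and 5 and 3 after RA. At TENM3 there were 1 and 2 in UT cells and 6 and 3 after RA. The RA lists were thus above the UT lists at TENM2 and TENM3, while the treatments overlapped at TENM4.

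**Figure D1:**
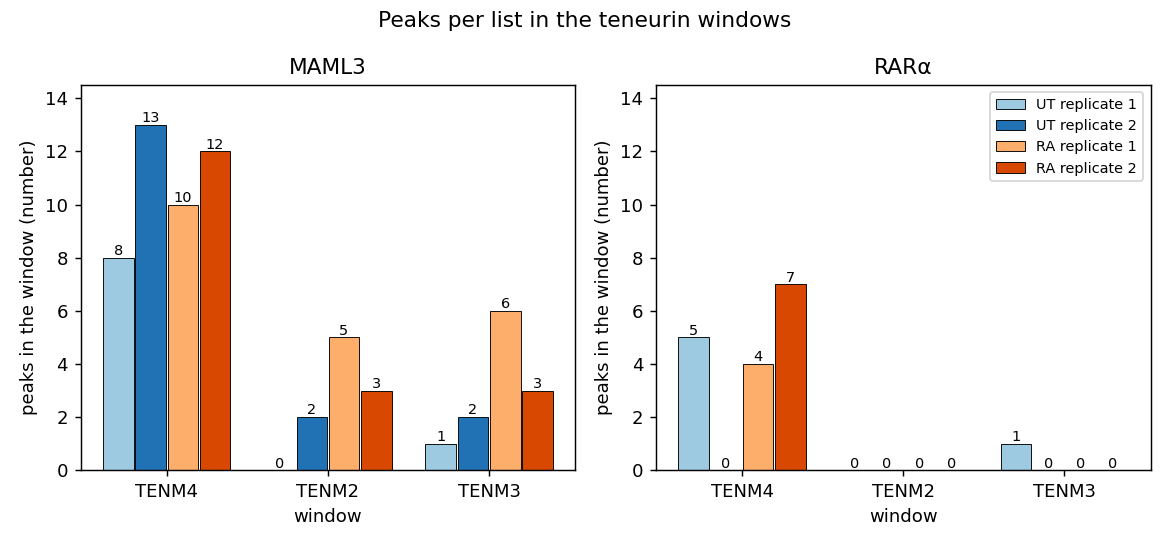
Number of peaks in each window (vertical axis) in each of the 8 lists, with MAML3 on the left and RARα on the right, 1 bar per list coloured by treatment and replicate. TENM4 has 8 to 13 MAML3 peaks in every list, whereas RARα peaks are 5, 0, 4 and 7 at TENM4, absent at TENM2 and 1 at TENM3.

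As a share of each list, TENM4 took 0.360 and 0.192% of the UT MAML3 peaks and 0.133 and 0.193% of the RA peaks (mean 0.276 ± 0.119 against 0.163 ± 0.0423%, SD, n = 2 lists each). TENM2 took 0 and 0.0296% against 0.0664 and 0.0482%, and TENM3 took 0.0450 and 0.0296% against 0.0797 and 0.0482%. With 2 lists against 2 an exact two-sided permutation p cannot fall below 0.333, so no test of these shares is given. When all MAML3 lists were held to their 2222 highest scores, TENM4 kept 8 and 8 UT peaks and 8 and 7 RA peaks. TENM2 then had 0 and 1 against 0 and 1, and TENM3 had 1 and 2 against 1 and 0. The higher RA counts at TENM2 and TENM3 were thus not seen among these 2222 peaks. In the upper 50% of scores of each list, the RA minus UT share stayed positive at TENM2, at 0.0278% of the list. At TENM3 it was -0.000258%.

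Peaks that overlapped by at least 1 bp were joined into sites for each antibody, numbered here from the low-coordinate end of each window. MAML3 had 14 sites at TENM4, 7 at TENM2 and 7 at TENM3. At TENM4, 8 of the 14 sites were present in all 4 MAML3 lists, against 16.8% of all 10251 MAML3 sites. TENM3 had 1 such site of 7 and TENM2 had 0 of 7. Sites seen in a single list made up 3 of 14 at TENM4, 5 of 7 at TENM2 and 4 of 7 at TENM3, where the share over all MAML3 sites was 37.2%. The genome was cut into 3644 adjoining stretches of the TENM4 window's length, 0.84 Mb. Of these, 8 (0.220%) had at least as many sites of all 4 lists and 62 (1.70%) at least as many sites of any kind. Stretches without sites and those over the window itself were counted. In all, 2697 held no site of all 4 lists and 1174 held no MAML3 site. For TENM2 and TENM3, 19.1 and 10.9% of such stretches of their own lengths held as many MAML3 sites or more. The windows were picked for their peaks, so these places in the order are descriptive.

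The TENM4 sites filled only part of the window. They ran from 78451413 to 78831562, a span of 380 kb or 45.3% of the window, with a median gap of 26.7 kb between neighbours. The next 368 kb, up to the high-coordinate end of the window, held no peak of either antibody in any list. TENM4 is read on the minus strand, so its start lies towards that end. Just outside the window, the nearest MAML3 sites lay 132 kb below, in 3 lists, and 55.4 kb above, in all 4.

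The strength of a peak was read from its score percentile, the percentage of peaks in the same list with a lower score. TENM4 site 6, at 11:78571613 to 78572231, ranked highest of all teneurin sites, with MAML3 percentiles of 99.1 and 99.5 in UT cells and 99.5 and 99.3 after RA. No other teneurin site stood above it in any MAML3 list. TENM4 site 5, at 78568663 to 78569212, lay 2.40 kb from it. Its MAML3 percentiles were 70.8 and 90.8 in UT cells and 86.6 and 88.2 after RA, and no RARα list had a peak there.

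Sites 10 and 1 of TENM4 followed in mean percentile. At site 10, 78729313 to 78729881, MAML3 stood at 95.5 and 97.9 in UT cells and at 97.1 and 94.6 after RA. At site 1, 78451413 to 78451966, it stood at 94.4 and 96.7 and at 96.7 and 94.2. The treatments overlapped at both sites. Site 2, at 78460207 to 78460712, gave 87.8 and 93.1 in UT cells and 86.4 and 90.9 after RA, which overlapped too.

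The treatments did not overlap at TENM4 sites 12 and 9, in opposite directions. At site 12, 78771163 to 78771716, MAML3 percentiles were 78.8 and 89.98 in UT cells and 95.5 and 95.1 after RA, so both RA lists were higher. At site 9, 78693563 to 78693962, they were 33.6 and 58.7 in UT cells and 23.8 and 23.0 after RA, so both RA lists were lower. Site 14, at 78830813 to 78831562, gave 66.2 and 89.3 against 78.8 and 77.9, and overlapped. Site 9 was the weakest of the 8 and the only one of them with a mean percentile under 50.

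**Figure D2:**
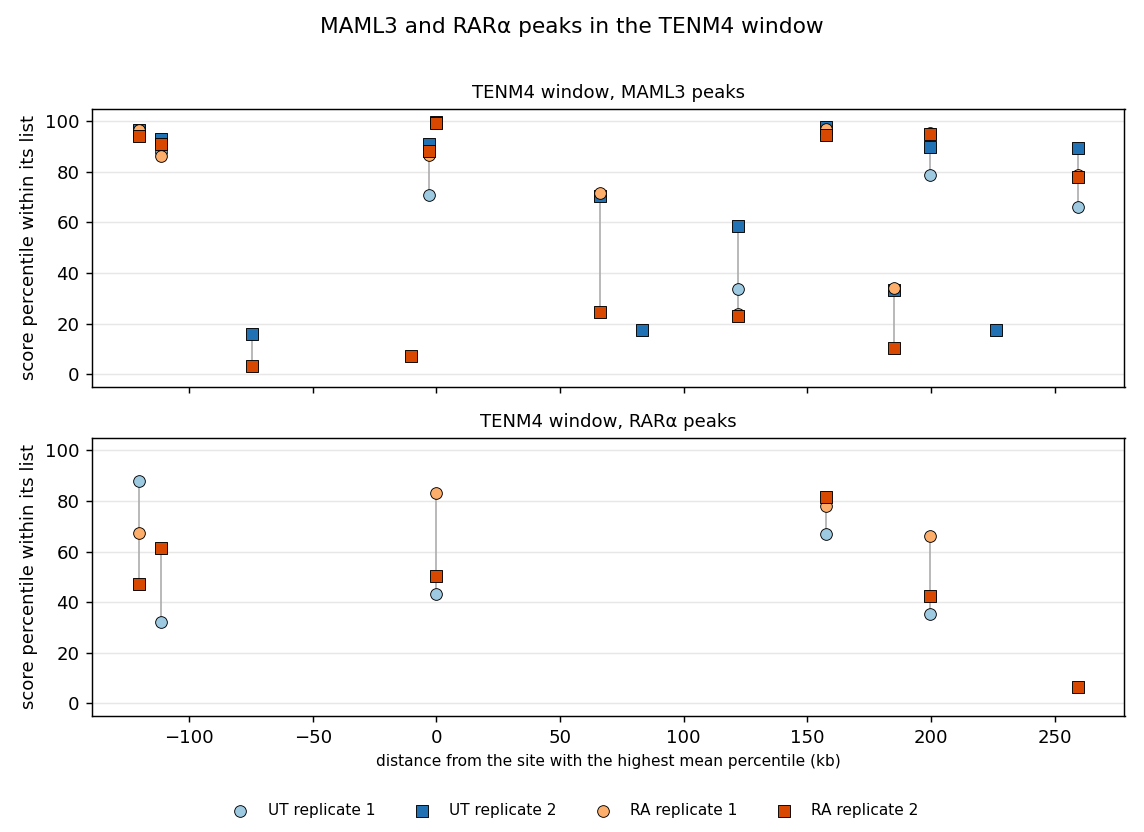
Score percentile within its own list (vertical axis) of each MAML3 site (top) and RARα site (bottom) in the TENM4 window, by distance in kb from site 6, which ranked highest. Points are lists, coloured by treatment with circles for replicate 1 and squares for replicate 2, and grey lines join the lowest and highest list of a site. The 6 sites with a RARα peak have mean MAML3 percentiles of 78.1 to 99.4, and UT replicate 2 of RARα has none.

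Over the 9 teneurin sites in all 4 lists, both RA percentiles were above both UT percentiles at 1 site and below at 1. Over all 1724 MAML3 sites of that kind, 25.7% were higher with RA and 5.92% lower by the same rule. The percentiles of these 1724 sites ran lower in the short UT list of 2222 peaks, with a median of 57.7 there and 80.7 to 85.0 in the other 3. The sites were therefore also ranked among the 1724 shared sites alone, an alternative added after the data were seen. By that rank both RA lists were lower than both UT lists at 6 of the 9 sites, against 25.2% of all shared sites, and higher at 1, against 22.1%. Site 12 of TENM4 stayed higher, with ranks of 74.2 and 64.6 in UT cells and 82.4 and 85.2 after RA. Site 14 went from 60.0 and 62.5 to 37.8 and 45.0, and site 9 from 25.6 and 11.1 to 1.74 and 4.06. Site 6 moved least, from 99.0 and 98.2 to 98.1 and 97.9. It counted as lower only by 98.20 in UT replicate 2 against 98.14 in RA replicate 1. The direction at sites 1, 2, 6, 10 and 14 thus depended on the set of peaks they were ranked in.

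**Figure D3:**
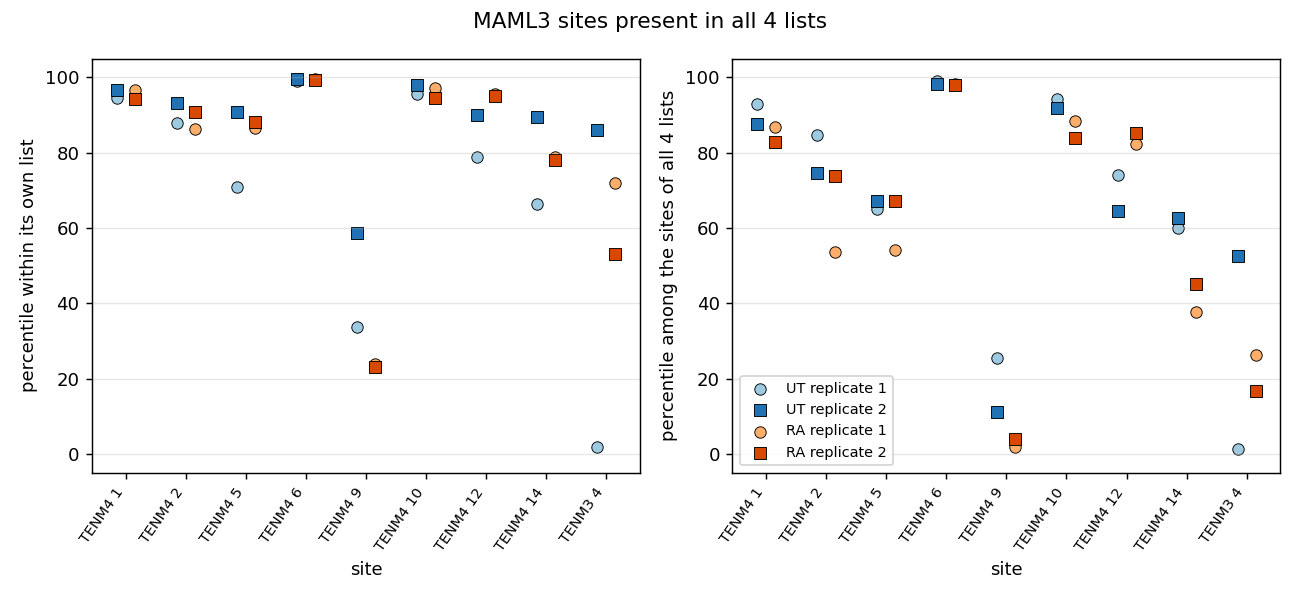
The 9 MAML3 sites present in all 4 lists (horizontal axis), with 1 point per list, coloured by treatment. The left panel gives the percentile within the whole list and the right panel the percentile among the 1724 sites that all 4 lists share. Site 12 of TENM4 is higher with RA in both panels, and sites 1, 2, 6, 10 and 14 are lower with RA in the right panel alone.

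The 8 TENM4 sites kept much the same order in the 4 lists. Spearman's rho between lists over these 8 sites was 0.98 for the UT pair, 0.90 for the RA pair and 0.76 to 0.93 across treatments. These values describe 8 sites that share each library, and carry no p. The UT pair may be 1 library, as said above. The agreement over all shared sites is not given, so these values have no background beside them. The median percentile of the 8 sites was 83.3 and 92.0 in UT cells and 91.0 and 92.6 after RA. MAML3 peaks in the window were also wide, with median widths of 421 and 400 bp in UT cells against 268 and 300 bp for the whole lists. After RA they were 475 and 525 bp against 350 and 400 bp. In UT replicate 2 the medians at TENM2 and TENM3, 396.5 and 450 bp, were above the list too. In the other lists with peaks there they were not. Peaks of like score were not set beside them. In the RA lists 99.9 and 100% of peaks had a width divisible by 50 bp, against 23.8 and 66.6% in the UT lists, so widths are not compared between treatments.

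The other 6 TENM4 sites were weaker or less often listed. Sites 7 and 11, at 78637717 to 78638216 and 78756607 to 78756966, were missing from UT replicate 1 alone. Site 7 had MAML3 percentiles of 70.3 in UT replicate 2 and 71.8 and 24.4 after RA. Site 11 had 33.2 and then 34.0 and 10.4. Site 3 was in UT replicate 2 and RA replicate 2, at percentiles of 16.0 and 3.18. Sites 8 and 13 were in UT replicate 2 alone, both at 17.6, and site 4 was in RA replicate 2 alone, at 7.06.

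RARα met MAML3 at 6 of the 14 TENM4 sites. It was seen in UT replicate 1 and both RA lists at sites 1, 6, 10 and 12, and in UT replicate 1 and RA replicate 2 at site 2. Site 14 had a RARα peak in RA replicate 2 alone, at a percentile of 6.39. No TENM4 site had a RARα peak in UT replicate 2, the list of 251 peaks. The RARα lists otherwise gave 5 peaks in UT cells and 4 and 7 after RA. As a share of the list, that was 0.379 and 0% in UT cells and 0.363 and 0.658% after RA, and the treatments overlapped. In RA replicate 2, site 1 was split into peaks at 78451533 to 78451689 and 78451728 to 78451908. Its 7 peaks and its share of 0.658% therefore count that site more than once. Of stretches as long as the TENM4 window, 0.648% held at least as many RARα sites. Of stretches as long as the TENM3 window, with its 1 RARα site, 31.3% did. No RARα site lay in 2361 of the 3551 stretches of the first kind and 2696 of the 3925 of the second.

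In RA replicate 1 the RARα order of the sites it held, 6, 10, 1 and 12, was also their MAML3 order. In UT replicate 1 and RA replicate 2 the orders of the antibodies differed. Site 10 had RARα percentiles of 67.1 in UT replicate 1 and 78.2 and 81.8 after RA, with the RA lists above the UT list. Site 6, first for MAML3, had 43.1 and then 83.3 and 50.4, and site 12 had 35.4 and then 66.3 and 42.3. Site 1 ran the other way, with 87.7 in UT replicate 1 and 67.5 and 47.0 after RA. Site 2 had 32.2 and 61.3 in the 2 lists that held it. In no RARα list did a TENM4 peak reach the 90th percentile, which 3 to 5 TENM4 peaks did in each MAML3 list. Every RARα list was shorter than every MAML3 list, so the same percentile stands for fewer peaks in it. These counts therefore do not compare the strength of binding of the antibodies. With a single UT list that holds these sites, the spread within UT cells is unknown.

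TENM4 sites 1, 6, 10 and 12 had RARα in UT replicate 1 and both RA lists. They are 4 of the 9 teneurin sites in all MAML3 lists. Over all 1724 such sites, 16.1% had RARα in those lists, whether or not UT replicate 2 held it too. That combination of lists is the one these teneurin sites showed, so the comparison is descriptive. With a RARα peak in any list counted, the number was 6 of 9 against 55.7%. Among the 19 teneurin sites in fewer than 4 MAML3 lists 1 had RARα, against 9.15% of all such sites. Seen from the receptor, all 7 RARα sites of the windows lay on a MAML3 peak, as did 84.4% of all 2120 RARα sites.

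Within a treatment, RARα was compared at MAML3 sites held by both replicates. In UT cells 5 of 9 teneurin sites had a RARα peak of a UT list (55.6%), against 40.9% of all such sites. With RA it was 6 of 14 teneurin sites (42.9%), against 22.9%. All of these were TENM4 sites. The windows were picked for their peaks and sites are not replicates, so these shares are descriptive. In the upper 50% of scores the order of the treatments turned, with 2 of 7 sites (28.6%) in UT cells and 5 of 9 (55.6%) after RA. The UT value came from UT replicate 1 of RARα: without UT replicate 1 of both antibodies it was 0 of 17. Without RA replicate 2 of both antibodies the RA value was 4 of 21 (19.05%).

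No teneurin RARα site was gained, meaning present in both RA lists and neither UT list, and none was lost by the opposite rule. Over all RARα sites 5.42% were gained and 0.472% lost. None of the 7 teneurin RARα sites was in all 4 lists, against 6.75% of all, and 2 were in 1 list, against 56.0%. The RARα count turned on UT replicate 1: without it TENM4 sites 1, 6, 10 and 12 counted as gained. Without UT replicate 2 the same 4 sites were in every RARα list left. With each RARα list held to 251 peaks, site 10 was the only RARα site gained, since RA held it in both lists and UT in neither.

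TENM2 and TENM3 each had 1 MAML3 site gained with RA, and none of the 28 teneurin MAML3 sites was lost. Over all MAML3 sites 9.37% were gained and 0.683% lost, so 2 of 28 (7.14%) is near the background. TENM2 site 6, at 5:167304299 to 167304698, had MAML3 percentiles of 50.4 and 40.8 after RA, and the nearest UT peak lay 363 kb away. The median over all 961 gained sites was 40.5 and 37.1 in these lists. TENM3 site 2, at 4:183197512 to 183197949, had 12.2 and 10.4, with the nearest UT peak 186 kb away. The 2 peaks of TENM3 site 2 overlapped by less than 50% of the shorter one, so a stricter overlap left TENM2 site 6 alone. Neither gained site was kept when lists were held to equal length or to the upper 50% of scores, and neither had a RARα peak. The number gained was 5 without UT replicate 2, 5 without RA replicate 1, 8 without RA replicate 2 and still 2 without UT replicate 1. With a list left out the rule rests on fewer lists and is easier to meet. Without an RA replicate, for example, a site of 1 list can count as gained. The share over all sites under that looser rule is not given, so these counts have no background beside them.

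The strongest TENM2 site, site 4 at 5:166842799 to 166843349, was in every MAML3 list but UT replicate 1. Its MAML3 percentiles were 83.4 in UT replicate 2 and 69.6 and 72.0 after RA, so the UT list stood higher. The remaining 5 TENM2 sites were in 1 list each. Of these, sites 1, 2 and 3 were in RA replicate 1 at percentiles of 6.80 to 8.95, site 7 in RA replicate 2 at 42.8 and site 5 in UT replicate 2 at 1.82. No RARα list had a peak at TENM2.

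TENM3 site 4, at 4:183504099 to 183504598, was the only site of that gene in all 4 MAML3 lists. Its MAML3 percentiles were 1.71 and 86.0 in UT cells and 71.8 and 53.2 after RA. The 2 UT lists thus lay at opposite ends, and the RA lists fell between them. Site 7, at 183650699 to 183651111, had MAML3 at 75.2 in UT replicate 2 and 48.8 in RA replicate 1, and was the only site outside TENM4 with a RARα peak, at 23.7 in UT replicate 1. Sites 1, 3, 5 and 6 were in 1 RA list each, at 1.03 to 26.3. A MAML3 site in 3 lists lay 8.14 kb below the window, at percentiles of 3.19 to 24.5.

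**Figure D4:**
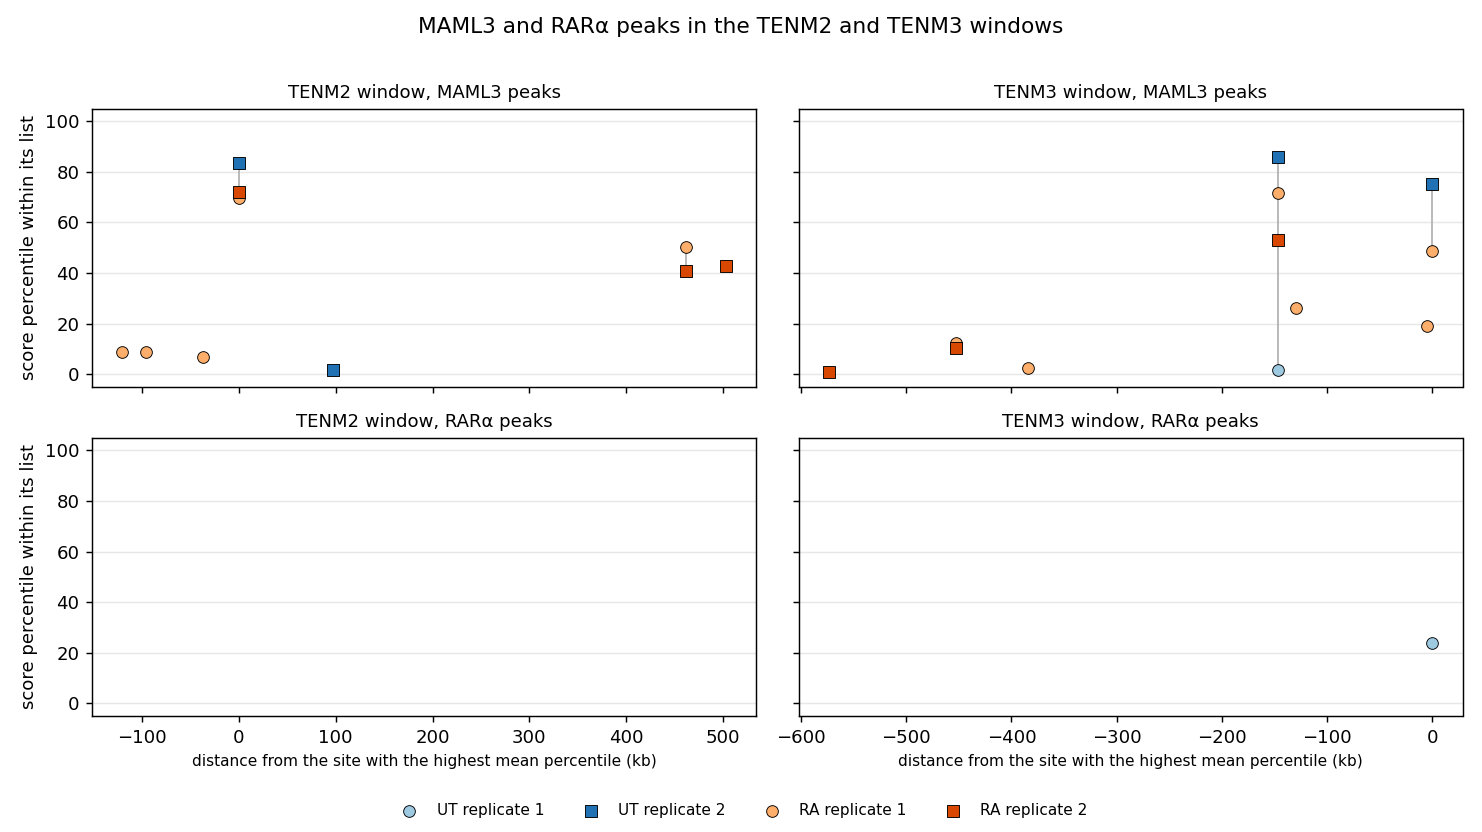
Score percentile within its own list (vertical axis) of MAML3 sites (top) and RARα sites (bottom) in the TENM2 window (left) and the TENM3 window (right), by distance in kb from the site with the highest mean percentile. Points are lists, with circles for replicate 1 and squares for replicate 2. No site reaches the 90th percentile, RARα has no peak at TENM2 and 1 at TENM3.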

How the data were processed

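ChIP-seq peak lists of 8 SK-N-SH libraries were used, and the 2 input samples were not used. The labels gave each library's group and replicate number. Tools named in the submitters' processing notes are BWA 0.5.9, MACS and bedtools, on hg19. No source used here states the threshold, control or filter behind the lists. Each list has a chromosome, a start, an end, a name and 1 number, taken as the authors' deposited score, which starts near 70. It ranks peaks within a list and never compares levels between libraries.

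Peaks touching a window were members. Peaks of an antibody overlapping by 1 bp were joined into sites, given from 1 at the first base. The exact permutation test and the intervals planned for the shares are not reported, because the windows were chosen on peak presence and 2 lists against 2 cannot pass such a test. The merging was tested on simulated data. Python 3.11.15, numpy 2.4.6, scipy 1.17.1 and matplotlib 3.10.9 were used. Promoter sequences come from RefSeq (GRCh38.p14), in which all 3 genes were found.

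The members and lists were chosen with earlier results of these data known. Sites to be named were those in all 4 lists of an antibody, gained or lost, the 3 highest ranked of each window, and those with both antibodies. The rest are given for completeness. Alternatives were a stricter and a looser overlap, the upper 50% of scores, lists of equal length, wider windows, leaving out each replicate, and counting sites of either replicate. Ranking among shared sites, and leaving out replicates in the shares of lists, were added later.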

Additional observations from a re-analysis of the deposited data

How the results depend on the processing

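MAML3 sites in every list numbered 9, and 7 to 12 under the alternatives. Gained MAML3 sites fell from 2 to 1 with an overlap of 50% of the shorter peak, to 0 with the upper 50% of scores and to 0 with lists of equal length. With 1 replicate left out, where the rule rests on fewer lists and is easier to meet, they were 2 to 8, and lost MAML3 sites 0 to 3. RARα sites gained rose from 0 to 1 with the upper 50% of scores (TENM4 site 6) and to 1 with lists of equal length (site 10), and were 0 to 4 with 1 replicate left out. RARα sites lost were then 0 to 1 and those in every list 0 to 4. The share of MAML3 sites with RARα, 55.6% in UT cells and 42.9% after RA, was 28.6 and 55.6% with the upper 50% of scores, 12.5 and 28.6% with lists of equal length, and 35.3 and 24.0% for sites in at least 1 replicate. With 1 replicate left out it was 0 to 55.6% and 19.05 to 42.9%. Sites with both RA lists lower rose from 1 to 6 by rank among shared sites, chosen after seeing the data. With windows wider by 100 kb the median percentile of TENM4 peaks went from 83.3 to 78.8 in MAML3 UT replicate 1 and from 83.1 to 77.9 in RA replicate 2.

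Sizes of the RA minus UT differences in percent of the list varied widely. For MAML3 at TENM4 the difference was -0.113, then -0.230 with the upper 50% of scores, -0.0225 with lists of equal length, and -0.197 (without UT replicate 2) to -0.0296 (without UT replicate 1). At TENM3 it was 0.0266, then -0.000258 and -0.0450 in the same order of settings. With 1 replicate left out it was 0.0109 (without RA replicate 1) to 0.0424 (without RA replicate 2). At TENM2 it was 0.0425, then 0.0278 and 0, and 0.0277 (without UT replicate 1) to 0.0573 (without UT replicate 2). Over the 3 windows it was -0.0444, then -0.202, -0.0675, and -0.121 (without UT replicate 2) to 0.0324 (without UT replicate 1). For RARα at TENM4 it was 0.321, then 0.493, 0.398, and 0.132 to 0.510. Over the 3 windows it was 0.283, then 0.493, 0.398, and 0.0561 to 0.510. For RARα the lower end was without UT replicate 2 and the upper end without UT replicate 1.

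With the replicate number as a block, MAML3 at TENM4 differed by -0.227 and 0.0003% of the list within replicates 1 and 2 (mean -0.113%). The replicate 1 minus 2 differences correlated at -0.0858 over 1724 MAML3 sites and -0.0907 over 143 RARα sites. Such correlations of percentiles cannot show whether same-numbered samples were prepared together, and the labels give only the number. The cause of these changes was not tested.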
